A study of Homo sapiens with 4 samples.

Results

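The genes described here are the pigmentation enzymes and melanosome genes TYR, TYRP1, DCT, PMEL, MLANA, GPR143, SLC45A2, OCA2, RAB38 and RAB27A. All gene-level probe sets of the exon array whose annotated symbol is one of these 10 genes were taken. Of the 10 genes, 8 had a probe set of their own among 27631 in all, TYR was listed only on 2 probe sets that also list TYRL, and DCT was not analysed here. Messenger RNA was measured in WM35, an established line of human melanoma cells of the radial growth phase. C646, a compound that blocks the acetyltransferase activity of p300 and of the related enzyme CBP, was given at 20 µM for 24 h or 6 h, and the solvent DMSO alone was given at 0.2% for 24 h or 6 h. Each of the 4 conditions was 1 array of a single cell line, with 100 ng of total RNA labelled. No difference between 2 arrays therefore has a replicate check or a p-value.

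Melanin is made inside melanosomes, organelles related to lysosomes. Tyrosinase (TYR) starts the synthesis from tyrosine, and TYRP1 and DCT act on later intermediates. PMEL builds the fibrils on which melanin is laid down, transporters set the ionic conditions inside the organelle, and RAB GTPases direct the enzymes to it and move the finished organelle. In melanocytes the transcription factor MITF drives many of these genes.

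After 24 h the 7 genes with a value above the low-signal filter had a median C646 minus DMSO difference of 0.15 on the log2 scale, against a median of 0.030 over all probe sets above the filter. The 24 h median does not include TYR; it was 0.078 with both probe sets that TYR shares with TYRL added, and 0.097 for the 7 genes against the mean of both DMSO arrays. After 6 h the median of the same 7 genes was 0.37, against -0.0024 over all probe sets. RAB38, MLANA and OCA2 were higher with C646 than with DMSO at both times. SLC45A2 and RAB27A were higher at 6 h and within 0.05 of DMSO at 24 h, PMEL differed by less than 0.1 at either time, and TYRP1 was the only one of the 7 that was lower at 6 h. The 2 probe sets shared by TYR and TYRL differed from each other.

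The promoter windows of TYR, TYRP1, OCA2 and MLANA are shown to mark CATGTG, a form of the E-box, the short motif that MITF reads. It lies in those of both enzymes and of OCA2 and not in that of MLANA. Of the E-box forms only CATGTG, also within TCATGTG, and CACGTG were searched. These windows were picked with the C646 differences known, and a link between motif and difference was not tested. TYR itself has no reading of its own here. Each window runs from 250 bases before to 50 bases after the RefSeq start of the gene in GRCh38.p14, and is written 5′ to 3′ on the strand of the gene. They are chr11:89177625-89177924 on the plus strand for TYR, chr9:12693135-12693434 on the plus strand for TYRP1, chr15:28099266-28099565 on the minus strand for OCA2 and chr9:5890639-5890938 on the plus strand for MLANA. Capitals mark matches to CATGTG on either strand, so that CACATG is the same motif on the opposite strand.
TYR: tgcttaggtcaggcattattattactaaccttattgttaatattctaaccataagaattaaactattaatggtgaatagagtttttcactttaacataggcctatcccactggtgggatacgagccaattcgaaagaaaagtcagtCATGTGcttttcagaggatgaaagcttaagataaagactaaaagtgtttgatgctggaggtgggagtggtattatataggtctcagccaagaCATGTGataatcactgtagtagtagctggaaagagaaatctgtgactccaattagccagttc
TYRP1: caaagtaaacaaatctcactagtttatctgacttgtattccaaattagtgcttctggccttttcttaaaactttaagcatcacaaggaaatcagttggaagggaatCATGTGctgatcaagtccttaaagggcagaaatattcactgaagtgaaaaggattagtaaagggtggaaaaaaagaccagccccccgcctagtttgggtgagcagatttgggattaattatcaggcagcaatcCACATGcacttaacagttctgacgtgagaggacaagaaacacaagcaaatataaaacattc
OCA2: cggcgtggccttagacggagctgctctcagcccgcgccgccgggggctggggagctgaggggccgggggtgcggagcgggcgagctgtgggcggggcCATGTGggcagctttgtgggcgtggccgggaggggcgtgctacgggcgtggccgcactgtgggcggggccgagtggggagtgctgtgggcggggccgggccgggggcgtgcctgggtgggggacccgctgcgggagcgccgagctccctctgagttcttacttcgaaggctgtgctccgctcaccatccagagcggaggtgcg
MLANA: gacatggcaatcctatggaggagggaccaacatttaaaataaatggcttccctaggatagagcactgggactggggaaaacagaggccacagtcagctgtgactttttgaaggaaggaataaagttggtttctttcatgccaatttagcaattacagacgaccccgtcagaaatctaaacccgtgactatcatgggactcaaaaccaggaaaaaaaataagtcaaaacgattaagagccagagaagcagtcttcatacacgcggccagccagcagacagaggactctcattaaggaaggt
TYR and TYRP1 each hold 2 matches to CATGTG, OCA2 holds 1 and MLANA holds 0. The longer form TCATGTG, which contains CATGTG, was found at 1 of the matches in TYR and 1 in TYRP1. Over all 35116 windows of this length, 11.1% hold CATGTG, 2.92% hold TCATGTG and 7.26% hold CACGTG. Windows were present for 7 of the 10 genes, 12 in all, since DCT has 2 and RAB27A has 5. CATGTG was found in 5 of the 12 windows (1 each of TYR, TYRP1, DCT, OCA2 and GPR143), TCATGTG in 4 and CACGTG in 0. A match is a stretch of letters and not a measured binding site.

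The values came from 4 arrays whose medians lay between 4.39 and 4.41, so that the arrays shared a scale. Over all probe sets, correlations with the C646 array of 24 h were 0.975 to 0.979, and those among the remaining 3 arrays 0.991 to 0.996. Probe sets with a mean of at least 3.96, the 40th percentile of all, were kept, which left 16579. The melanocyte regulators SOX10 and MITF, the marker S100B and the pigment genes PMEL, MLANA and TYRP1 all lay above this value on every array. Their levels were not all alike with C646 and DMSO: S100B differed by 1.49 at 24 h and 0.61 at 6 h, and SOX10 by 0.74 and 0.29. Between the DMSO arrays, 24 h minus 6 h, S100B differed by -0.38 and SOX10 by -0.24. CREBBP, which encodes CBP, differed by 0.016 at 24 h and by -0.11 at 6 h, and the probe set that lists EP300, the gene of p300, together with MIR1281 differed by -0.098 and -0.15.

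**Figure D1:**
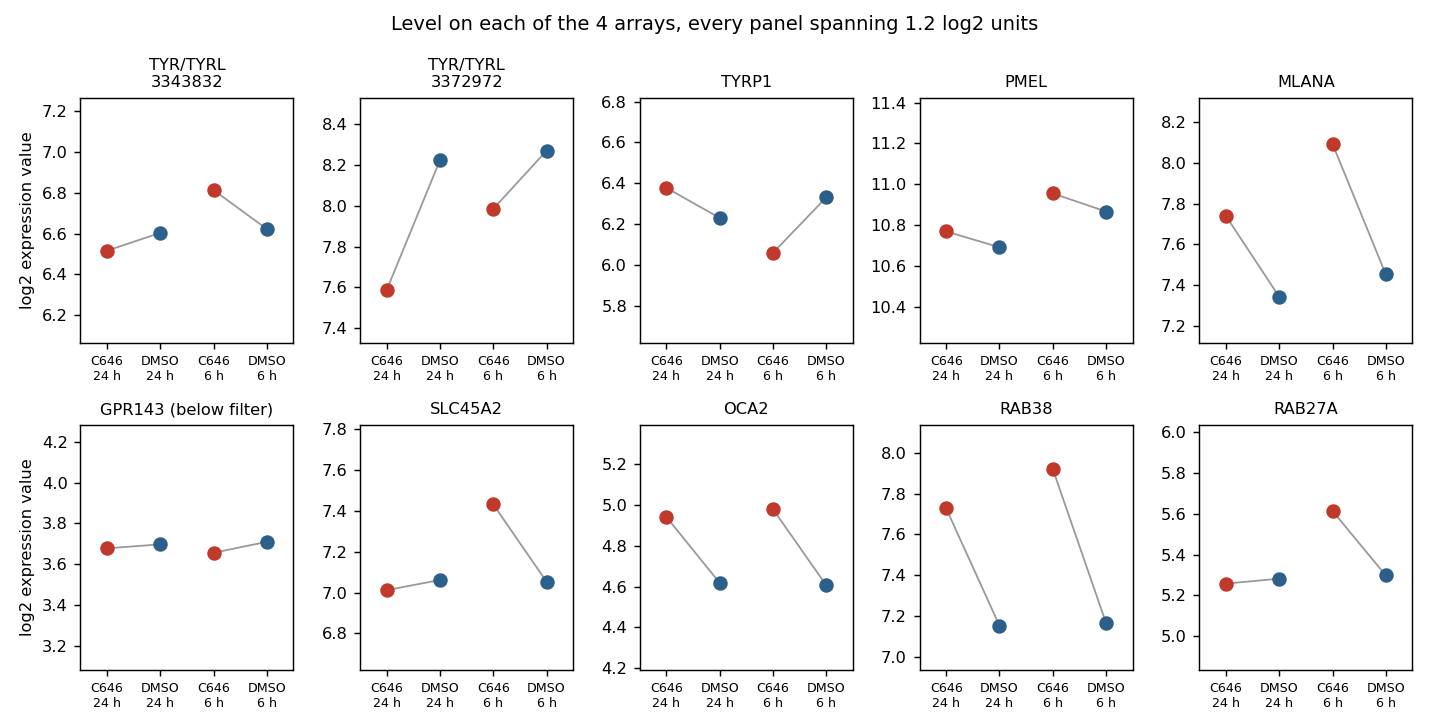
Log2 expression value (vertical axis) of the 10 probe sets that list a pigmentation or melanosome gene on each of the 4 arrays, with C646 in red, DMSO in blue and a line joining the 2 arrays of 1 time. RAB38, MLANA and OCA2 have both C646 points above both DMSO points, and the probe set 3372972 of TYR and TYRL has both below.

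Among the enzymes, TYRP1, which acts on an intermediate of eumelanin synthesis, read 6.38 with C646 and 6.23 with DMSO at 24 h, a difference of 0.15. At 6 h it read 6.06 with C646 and 6.33 with DMSO, a difference of -0.27. The C646 values lay on either side of the DMSO values. Between the DMSO arrays alone TYRP1 differed by -0.10, 24 h minus 6 h.

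TYR, the enzyme that limits the rate of melanin synthesis, could not be read apart from TYRL, a pseudogene that copies part of it. Probe set 3343832 read 6.52 with C646 and 6.60 with DMSO at 24 h, and 6.81 with C646 and 6.62 with DMSO at 6 h. Its differences were -0.087 at 24 h and 0.19 at 6 h, so the C646 values lay on either side of those of DMSO. Probe set 3372972 read 7.59 with C646 and 8.22 with DMSO at 24 h, and 7.98 with C646 and 8.27 with DMSO at 6 h. Its differences were -0.64 and -0.29, with both C646 values below both DMSO values, and between the DMSO arrays it differed by only -0.046. A probe set of FOLH1 and FOLH1B stands next to each by number. The number of 3372972 also places it near OR4C12, and in RefSeq FOLH1 and OR4C12 are among the 6 coding genes nearest to TYRL. That of 3343832 places it after TMEM135 and before a probe set of the TRIM49 and TRIM64 families, and TRIM49 and TRIM77 are among the 6 coding genes nearest to TYR. TRIM49 and TRIM64 relatives also stand beside TYRL, and which of both transcripts each probe set reads was not tested.

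Of the structural genes, MLANA encodes MART-1, a membrane protein of early melanosomes that interacts with PMEL. It read 7.74 with C646 and 7.34 with DMSO at 24 h, and 8.09 with C646 and 7.45 with DMSO at 6 h. Both C646 values lay above both DMSO values, and the differences of 0.40 and 0.64 correspond to 1.32-fold and 1.56-fold. The DMSO arrays of both times differed by -0.11. PMEL, formerly called SILV, read 10.77 with C646 and 10.69 with DMSO at 24 h, and 10.95 with C646 and 10.87 with DMSO at 6 h. Its differences of 0.078 and 0.089 were smaller than its change of -0.18 between the DMSO arrays. GPR143, a receptor in the melanosome membrane, read 3.68 with C646 and 3.70 with DMSO at 24 h, and 3.66 with C646 and 3.71 with DMSO at 6 h. All 4 values lay below the filter, so a difference in GPR143 could not be read at this signal.

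The transporters went the same way at 6 h and apart at 24 h. OCA2, a melanosomal membrane protein that raises the pH inside the organelle, read 4.94 with C646 and 4.62 with DMSO at 24 h, and 4.98 with C646 and 4.61 with DMSO at 6 h. Its differences were 0.32 and 0.37, with both C646 values above both DMSO values. SLC45A2, a sugar transporter family member that also keeps melanosomal pH high, read 7.01 with C646 and 7.06 with DMSO at 24 h, and 7.43 with C646 and 7.05 with DMSO at 6 h. The C646 array of 6 h was thus above the other 3 arrays, which lay within 0.05 of each other. Its differences were -0.050 at 24 h and 0.38 at 6 h.

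The trafficking genes showed the same split. RAB38, a GTPase that directs TYR and TYRP1 to melanosomes, read 7.73 with C646 and 7.15 with DMSO at 24 h, and 7.92 with C646 and 7.17 with DMSO at 6 h. Its differences of 0.57 and 0.76, or 1.49-fold and 1.69-fold, were the largest among the 7 genes at each time, while its DMSO arrays differed by -0.013. RAB27A, which links mature melanosomes to the actin motor myosin Va through melanophilin, read 5.26 with C646 and 5.28 with DMSO at 24 h. At 6 h it read 5.61 with C646 and 5.30 with DMSO, so again the C646 array of 6 h was the one that stood above the other 3. Its differences were -0.024 and 0.32.

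**Figure D2:**
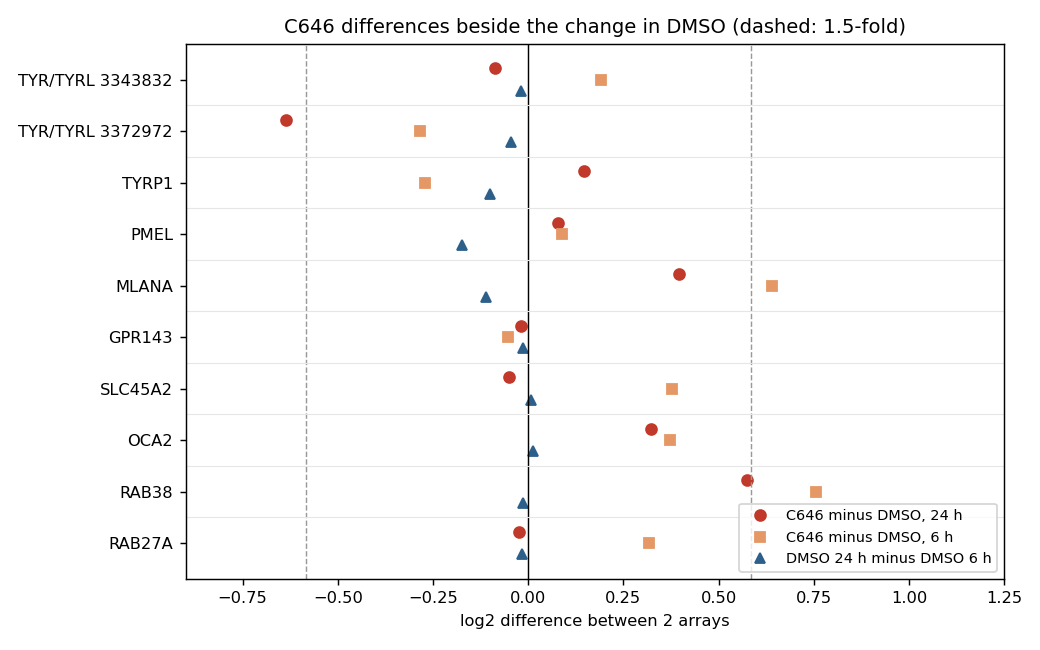
Log2 differences (horizontal axis) of each probe set, with C646 minus DMSO at 24 h as circles, C646 minus DMSO at 6 h as squares and the change in DMSO, 24 h minus 6 h, as triangles, and dashed lines at 1.5-fold. RAB38 and MLANA pass 1.5-fold at 6 h, and the changes in DMSO of the 7 genes above the filter span -0.18 to 0.012.

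Counts of these genes are small beside the whole array. At 24 h 5 of the 7 genes lay above 0, where 55% of all probe sets did, and at 6 h 6 of the 7, where 49.4% did. At both times 4 of the 7 lay above 0, against 34.5% of all probe sets, and 3 of the 7 had opposite signs at the 2 times, against 35.5%. A difference of 1.5-fold is 0.58 on the log2 scale. At 24 h 0 of the 7 genes were at least 1.5-fold higher, against 4.96% of all probe sets, and 0 were at least 1.5-fold lower, against 5.34%. At 6 h 2 of the 7, MLANA and RAB38, were at least 1.5-fold higher, against 1% of all probe sets, and 0 were at least 1.5-fold lower, against 1.26%. At 24 h RAB38 lay just under the limit, and the shared probe set 3372972 was past it on the lower side. No gene of the 7 reached 2-fold at either time, where 3.64% of all probe sets did at 24 h and 0.241% at 6 h. Both C646 arrays lay above both DMSO arrays for 3 of the 7 genes, against 25.7% of all probe sets, and below both for 0 of the 7, against 21.4%. RAB38 lay above 94.8% of all probe sets at 24 h and above 99.6% at 6 h, and MLANA above 88.9% and 99.2%. OCA2 lay above 84.7% and 96.4%, and SLC45A2 above 37.0% and 96.6%. RAB27A lay above 41.0% and 94.5%, PMEL above 57.5% and 71.1%, and TYRP1 above 67.5% and 8.06%.

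**Figure D3:**
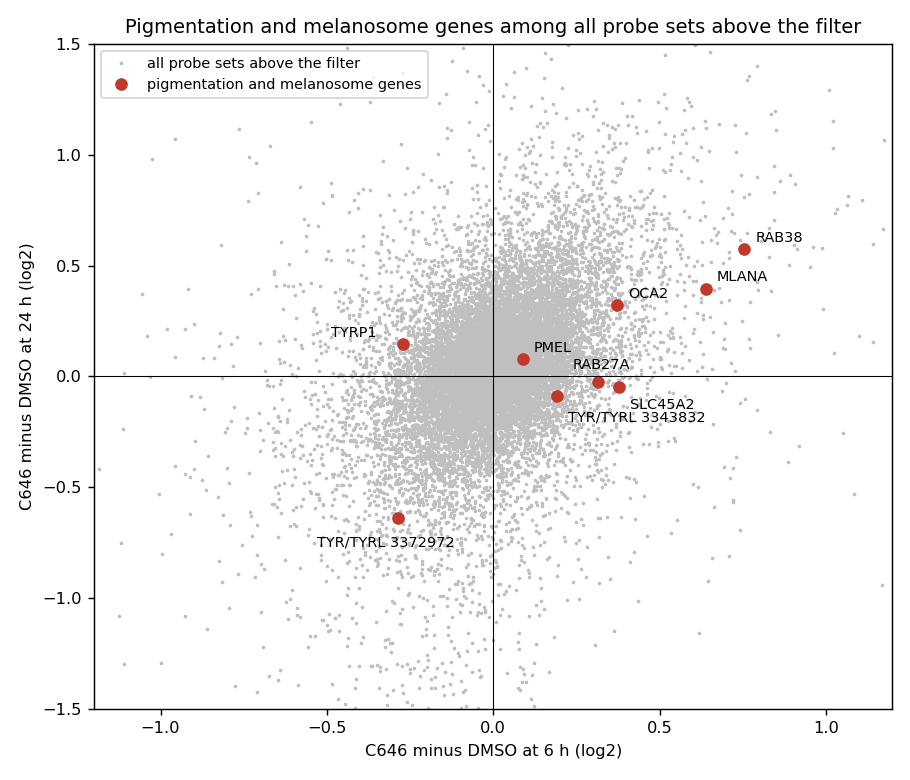
C646 minus DMSO at 6 h (horizontal axis, log2) and at 24 h (vertical axis, log2) for all 16579 probe sets above the filter (grey), of which 275 lie outside the axes, with the 7 genes and both probe sets of TYR and TYRL in red. RAB38, MLANA and OCA2 lie to the upper right, SLC45A2 and RAB27A lie close to 0 on the vertical axis, and TYRP1 lies left of 0.

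For 6 of the 7 genes the C646 difference was smaller at 24 h than at 6 h, TYRP1 being the exception, where 44.6% of all probe sets had a smaller value at 24 h. The difference of both effects, 24 h minus 6 h, had a median of -0.18 and ranged from -0.43 for SLC45A2 to 0.42 for TYRP1. With 1 array per condition this difference has no test. As 4-array profiles, each centred on its own mean, SLC45A2 and RAB27A were the closest pair at a Euclidean distance of 0.052, and TYRP1 and RAB38 the farthest at 0.81.

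The one test that the design allows was a limma fit of time and treatment to the 4 arrays, which estimates an effect of C646 shared by both times. It has 1 residual degree of freedom, and its error comes from the disagreement of both times, not from the spread of replicate cultures. limma moderates that error towards the one typical of all kept probe sets, with 3.02 prior degrees of freedom. Each SE below is thus only in part the gene's own disagreement. RAB38 was estimated at 0.66 ± 0.12 (SE), MLANA at 0.52 ± 0.13, OCA2 at 0.35 ± 0.091 and the shared probe set 3372972 at -0.46 ± 0.14. None passed, with a limma adjusted p of 0.448 for each of the 4, and none of all 16579 probe sets did (0%). At an unadjusted limma p under 0.05 these 4 were counted among the 9 probe sets fitted here, against 11% of all probe sets. The estimates of the rest were 0.16 ± 0.15 for SLC45A2, 0.15 ± 0.13 for RAB27A, 0.083 ± 0.11 for PMEL, -0.062 ± 0.15 for TYRP1 and 0.052 ± 0.13 for probe set 3343832. Without the C646 array of 6 h and without the time term, the estimates were 0.57 for RAB38 and -0.66 for 3372972. Over the 4 fits that each leave out 1 array, MLANA ranged from 0.34 (without the C646 array of 6 h) to 0.69 (without that of 24 h), 3372972 from -0.66 to -0.26 (without the C646 array of 24 h), RAB38 from 0.57 to 0.76 and OCA2 from 0.33 to 0.37. The fit without the C646 array of 6 h sets 1 C646 array against both DMSO arrays. It takes its spread from the DMSO pair, moderated in the same way, and assumes that the lone C646 array varies like that pair.

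Other genes of the pigment pathway were read from 5 lists, and lysosome genes from another. Among lineage transcription factors, all 9 above the filter were above 0 at 24 h with a median of 0.57, and 7 of 9 at 6 h with a median of 0.19, against 55% and 49.4% of all probe sets above 0. MITF read 7.37 with C646 and 6.47 with DMSO at 24 h, and 7.60 with C646 and 6.81 with DMSO at 6 h, so both C646 values lay above both DMSO values. The differences were 0.90 and 0.79 for MITF and 0.88 and 0.86 for IRF4, a factor that acts with MITF on TYR. Between the DMSO arrays, 24 h minus 6 h, MITF differed by -0.34 and IRF4 by -0.10. TFEB, a lysosomal regulator related to MITF, was at 0.050 and 0.068, and its relative TFE3 at 0.080 and -0.11.

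Melanosome biogenesis genes, mostly subunits of the BLOC and AP-3 sorting complexes, had a median of 0.22 at 24 h and one of 0.12 at 6 h, with 19 and 17 of 23 above 0, against 55% and 49.4% of all probe sets. At 24 h 3 of these 23 were higher by 1.5-fold or more, against 4.96% of all probe sets, and 0 were lower by as much, against 5.34%. At 6 h 2 of the 23 were higher by 1.5-fold or more, against 1%. AP1S2, a subunit of the AP-1 clathrin adaptor, was at 1.04 and 0.63, although its DMSO arrays differed by -0.44. The probe set of AP1S2, 3765122, is numbered near that of the collagen gene COL1A1 (3762198), and which locus it reads was not tested. KIF13A, the kinesin that carries melanosome cargo out of endosomes, was at 0.50 and 0.63. BLOC1S1 was at -0.39 and 0.14, and dysbindin (DTNBP1) at -0.13 and 0.0095.

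Genes of melanosome transport had medians of 0.12 and 0.095, with 7 of 11 above 0 at each time, against 55% of all probe sets at 24 h and 49.4% at 6 h. At least 1.5-fold higher were 3 of the 11 at 24 h, against 4.96%, and 1 at 6 h, against 1%. The GTPase RAB17 was at 1.08 and 0.54, and RAB3A at 0.83 and 0.85. RAB8A was at -0.29 and -0.42, and the actin-bundling protein gene FSCN1 at -0.12 and -0.14. The probe set of FSCN1, 3588191, is numbered near that of BLOC1S6 (3592484), and which locus it reads was not tested either.

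Other melanosome transporters and channels had medians of 0.068 and 0.14, with 5 of 8 above 0 at each time, against 55% and 49.4% of all probe sets. The cation channel gene MCOLN3 was at 1.02 and 0.47, and MFSD12, which brings cysteine into melanosomes, at 0.38 and 0.24. The cystine transporter gene SLC7A11 was at -0.048 and 0.031, and the amino acid transporter gene SLC36A1 at -0.24 and -0.14. Pigment signalling genes had medians of 0.071 and 0.049, with 8 of 11 above 0 at each time, against the same shares. The endothelin receptor gene EDNRB was at 0.62 and 0.22, the KIT ligand gene KITLG at 0.52 and -0.13, the kinase subunit gene PRKACB at -0.14 and 0.049, and CREB1 at -0.17 and -0.14. MC1R, the melanocortin receptor, had only a probe set shared with tubulin genes and is not read here.

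**Figure D4:**
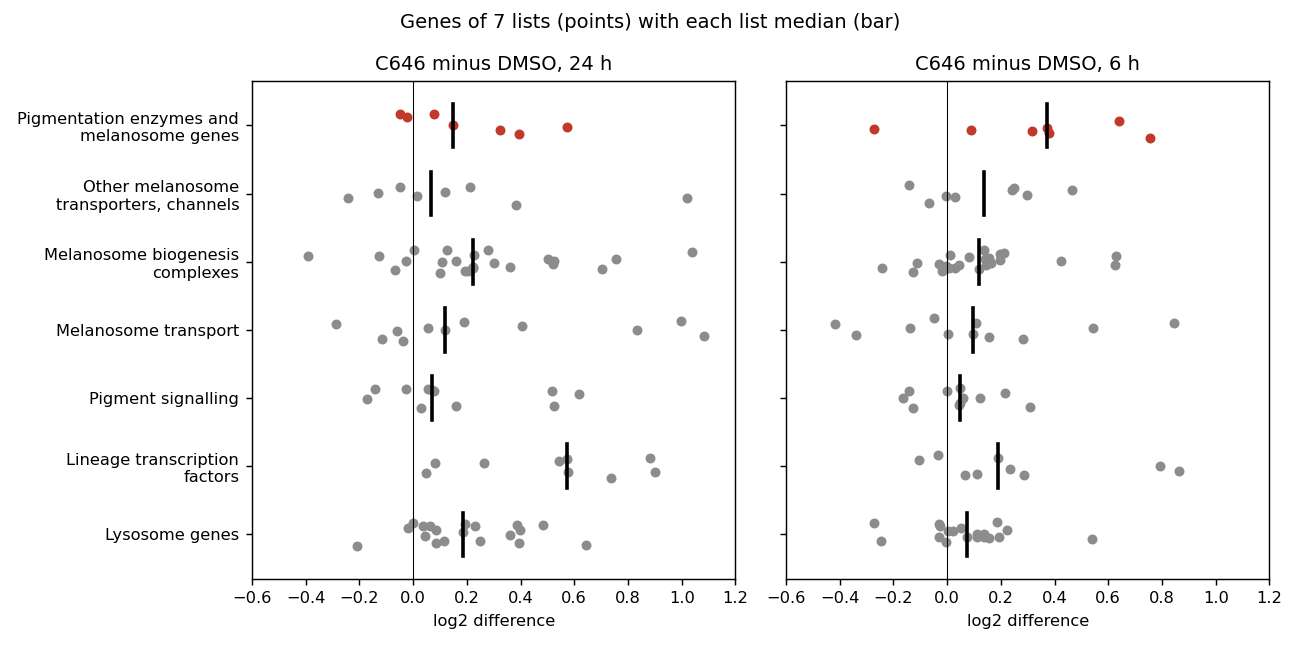
Log2 C646 minus DMSO differences (horizontal axis) at 24 h (left) and at 6 h (right) for genes above the filter in 7 lists, with 1 point per gene and a black bar at the list median. The median of the pigmentation enzymes and melanosome genes is 0.15 at 24 h and 0.37 at 6 h, and that of the lineage transcription factors is 0.57 and 0.19.

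Lysosome genes, the organelle family to which melanosomes belong, had a median of 0.18 at 24 h and one of 0.075 at 6 h, with 17 and 13 of 19 above 0, against 55% and 49.4% of all probe sets. The peptidase gene TPP1 was at 0.64 and 0.11 and the sialidase gene NEU1 at 0.19 and 0.54, whereas LAMP2 was at 0.084 and -0.25 and cathepsin K (CTSK) at 0.043 and -0.27. The medians at 24 h were thus higher than at 6 h for the lysosome, biogenesis, lineage factor, transport and pigment signalling lists. They were lower for the pigmentation enzymes and melanosome genes and for the other melanosome transporters and channels. Over all probe sets the median was 0.030 at 24 h and -0.0024 at 6 h. The differences between lists have no test.

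Of the keratinocyte markers with a probe set of their own, 4 of 8 passed the filter. So did 4 of 9 fibroblast and 2 of 8 leukocyte markers, out of lists of 11, 10 and 10. Over the whole array 10707 of 17144 named genes passed. The part of these markers in the results above was not tested. The basal keratin gene KRT14 stayed below the filter. The sums given here are on the linear scale and include measured markers below the filter (4 keratinocyte, 5 fibroblast and 6 leukocyte). They thus hold background signal and are not read as amounts of a cell type. The 8 measured keratinocyte markers came to 174.4 with C646 and 166.5 with DMSO at 24 h, and to 171.5 with C646 and 175.4 with DMSO at 6 h. KRT10 was at 0.16 and -0.091, KRT15 at 0.10 and 0.076, SFN at -0.069 and 0.095 and IVL at 0.12 and -0.010. The 9 measured fibroblast markers summed to 199.1 with C646 and 198.0 with DMSO at 24 h, and to 187.7 with C646 and 193.4 with DMSO at 6 h. The collagen genes COL1A2 and COL3A1 stayed below the filter, while LUM was at -0.21 and -0.11, FAP at 0.53 and -0.078, TWIST2 at -0.15 and 0.23 and COL1A1 at 0.0031 and -0.023. The 8 measured leukocyte markers summed to 307.6 with C646 and 296.5 with DMSO at 24 h, and to 304.7 with C646 and 283.0 with DMSO at 6 h. PTPRC, which encodes the pan-leukocyte antigen CD45, stayed below the filter. CD68, a lysosomal membrane protein gene used as a macrophage marker, read 7.77 with C646 and 7.71 with DMSO at 24 h, and 7.76 with C646 and 7.62 with DMSO at 6 h. Its differences were 0.058 and 0.13, and those of TYROBP were 0.052 and 0.00088.

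Genes with the most similar 4-array profile were found among 10629 named genes above the filter by the Euclidean distance between centred log2 values. Closest to the median profile of the 7 genes were UQCRQ at 0.062, LYSET at 0.065, CPT2 at 0.067, FAM222A-AS1 at 0.068 and SLC50A1 at 0.070. The single nearest gene was MBP for RAB38, HOXA2 for MLANA, TTYH3 for OCA2, DYSF for SLC45A2, CYP4V2 for RAB27A, FIBP for PMEL and BBS7 for TYRP1, at distances of 0.0082 to 0.051. With 4 values per profile and this many genes, close neighbours are found for most profiles, and the likeness is a description only.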

How the data were processed

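The authors deposited gene-level log2 expression values from Affymetrix GeneChip Human Exon 1.0 ST arrays, 1 per condition. That the scale is log2 follows from their range. Per the submitters' processing notes the genome build was hg19, and the summarisation and normalisation are not given in the sources used here. For arrays, their number limits the precision.

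Of 27631 probe sets, the platform annotation gave 20429 1 symbol, 4232 several and 2970 none. Symbols were updated through Entrez identifiers with a RefSeq gene table of GRCh38.p14, which also supplied the promoter windows. The probe set with the highest mean stood for a gene, and probe sets of several genes are reported as such. Probe sets at or above the 40th percentile of the mean (3.96) were kept, leaving 16579. Differences were taken between arrays and counted at 1.5-fold and 2-fold. limma 3.58.1 (R 4.3.3) fitted time and treatment, with a trend of the variance on the mean, and p-values were adjusted by Benjamini-Hochberg over all kept probe sets, with a threshold of 0.05. The fit was tested on simulated data of 16579 probe sets with the error it had on the real ones. It recovered 1% of the simulated 2-fold changes and 92% of the 4-fold ones, with 4 false calls. With an error as small as that between the DMSO arrays, set equal for every probe set, it recovered 100% of both. Real probe sets differ in their error, so this second figure does not carry over to them.

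The genes and lists were chosen with earlier results of these data known. Named were the 10 genes. From each other list came the 2 highest and 2 lowest genes by mean effect and any at least 2-fold different. The regulators MITF, EP300 and CREBBP and the genes of nearest profile were added. Lineage and marker genes named to check the cell type lie outside this rule, and were chosen after their values were seen. An alignment of the TYR family proteins was planned and not run. Alternatives were quantile normalization, other filters, the mean of a gene's probe sets, both DMSO arrays as the baseline, other limma settings, and each array left out.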

Additional observations from a re-analysis of the deposited data

Results flagged for a closer look

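For 3 of the 7 genes and 1 shared probe set the C646 difference had opposite signs at 24 h and 6 h, which 35.5% of all probe sets did too. The 24 h minus 6 h difference of effects was 0.42 for TYRP1, -0.43 for SLC45A2, -0.34 for RAB27A and -0.28 for the TYR;TYRL row 3343832. The 24 h values of SLC45A2 and RAB27A were within 0.05 of 0. Among the other named pathway genes the signs were also opposite for KITLG (0.65), LAMP2 (0.33), CTSK (0.31), TFE3 (0.19), SLC7A11 (-0.080), DTNBP1 (-0.14), PRKACB (-0.19) and BLOC1S1 (-0.53). Among markers of other cell types they were opposite for FAP (0.60), KRT10 (0.25), IVL (0.13), COL1A1 (0.026), SFN (-0.16) and TWIST2 (-0.37). With 1 array per condition none of these differences was tested.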

How the results depend on the processing

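The medians of the pigmentation enzymes and melanosome genes stayed above 0 under each alternative run, between 0.078 and 0.15 at 24 h and between 0.32 and 0.37 at 6 h. The lowest value at each time was with both TYR and TYRL probe sets included (0.078 at 24 h and 0.32 at 6 h), an alternative chosen after seeing the data. The mean of a gene's probe sets could change nothing, since each of the 7 genes had 1 probe set of its own. Without the filter GPR143 entered, and the filter at the 60th percentile removed OCA2. Against the mean of both DMSO arrays PMEL was at -0.010 at 24 h, and 4 of the 7 genes lay above 0 in place of 5. In the limma model each array was left out in turn, without the time term. The number of probe sets passing then ranged from 0 to 2252, and the estimates ranged from -0.097 to 0.20 for 3343832, -0.22 to 0.097 for TYRP1, -0.010 to 0.18 for PMEL, -0.046 to 0.37 for SLC45A2 and -0.032 to 0.32 for RAB27A. Each of these 5 changed sign without the C646 array of 6 h, and PMEL also without the DMSO array of 24 h (-0.0046). The limma fit with time as a term sets C646 against DMSO within each time, and without that term it also called 0 (lowest limma adjusted p = 0.504, against 0.448). The labels give no replicate numbers to pair by.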
